A study of Penicillium oxalicum with 15 samples.

Results

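cel61A is the gene of Penicillium oxalicum with the locus tag PDE_05633, a gene known in this species for a lytic polysaccharide monooxygenase. It was taken by its tag as 1 row of the 9976 genes in the deposited table, and its level was followed through 15 RNA-seq libraries in 5 groups of 3. Its known low level on glucose was part of the reason for choosing it, so its levels on glucose are described below without a test, between the carbon sources as between the strains. The gene name rests on prior knowledge of the locus tags, as do the names of the genes set beside it, and no sequence was at hand to check them.

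Mycelia of 3 strains were compared. M12 served as the control, gClrBID carries an overexpressed internal mutant of ClrB, and deltacreA lacks creA. The sources used here do not give the promoter behind the ClrB mutant, the number of clones or any further markers of M12. Every culture first grew for 22 h in Vogel's medium containing 2% glucose and then spent 4 h at 30 °C and 200 rpm on the carbon source under study, which was 2% (w/v) glucose or 2% (w/v) cellulose. M12 and gClrBID were measured on both carbon sources, and the creA deletion on cellulose. The series calls the 3 libraries of a group biological triplicates without describing the cultures, so a p-value covers the spread between such libraries, which may be technical.

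Lytic polysaccharide monooxygenases are copper enzymes that cut the chains of crystalline cellulose by oxidation. The breaks they make give cellobiohydrolases, which run along a chain from its end, and endoglucanases, which cut within a chain, new places to act. Fungi that rot plant matter secrete these enzymes together. In such fungi ClrB is an activator of cellulase genes. CreA is the repressor that keeps many genes for the use of other carbon sources low while glucose is present. Below, cel61A is listed with the cellulase genes as a grouping only, since a lytic polysaccharide monooxygenase cuts by oxidation.

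The altered genes were checked first. creA (PDE_03168) was at 2, 1 and 0 fragments in the 3 deletion libraries and averaged 434 FPKM (counted fragments scaled by gene length and by library total) in M12 on cellulose. clrB (PDE_05999) averaged 469 FPKM in gClrBID on glucose and 10.1 in M12. On cellulose, clrB in gClrBID read 56.0, 76.2 and 88.8 FPKM, below its M12 mean of 153, so its level there does not mark the strain. Libraries held 10129672 to 18361206 counted fragments, and replicates correlated across genes with Pearson's r of 0.992 to 0.997 on log values.

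cel61A was close to silent on glucose. In M12 on glucose it was at 0, 0 and 0.088 FPKM, which came from 0, 0 and 1 fragments. For the 2 libraries at 0, a floor of 3 fragments allows up to 0.228 and 0.223 FPKM. In gClrBID on glucose it was at 0.695, 0.263 and 0.612 FPKM, from 7, 2 and 6 fragments. Every gClrBID library was above every M12 library, at the closest by 2 fragments against 1. Each of the 6 levels was below 1 FPKM. By FPKM, cel61A ranked 8005, 8463 and 8085 among the genes of the gClrBID libraries.

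On cellulose cel61A was transcribed in all strains, at levels that spanned more than 2 orders of magnitude. In M12 it read 24.5, 24.1 and 25.0 FPKM, a mean of 24.5 ± 0.481 (SD, n = 3) resting on 250, 266 and 299 fragments. In gClrBID it read 169.6, 122.2 and 113.8 FPKM, a mean of 135 ± 30.1 (SD, n = 3). In the creA deletion it read 4141, 3759 and 4323 FPKM, a mean of 4074 ± 288 (SD, n = 3), from 41488 to 59538 fragments per library. The order of the group means was therefore M12 on glucose, gClrBID on glucose, M12 on cellulose, gClrBID on cellulose and the creA deletion on cellulose. Libraries of adjacent groups did not overlap, but the step between the glucose groups rests on 0 to 7 fragments per library. Low levels there were part of the reason for choosing the gene, and the share of all genes so separated is not given. In bulk mycelia, fewer cells that transcribe a gene and less of its RNA per cell cannot be told apart.

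**Figure D1:**
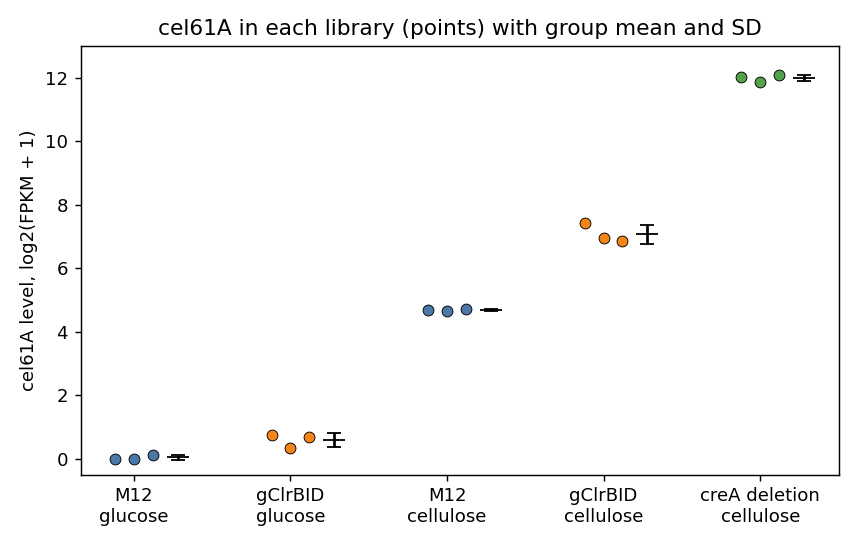
Level of cel61A as log2(FPKM + 1), with the 5 groups along the horizontal axis; points are libraries, and the bars beside them are the group mean and SD (n = 3). The M12 glucose libraries lie at or near 0, the M12 cellulose libraries (24.1 to 25.0 FPKM) sit close together, and the creA deletion libraries (3759 to 4323 FPKM) lie far above the rest.

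As a share of all counted fragments, cel61A held 0.00184% in M12, 0.0101% in gClrBID and 0.306 ± 0.0216% (SD, n = 3) in the creA deletion on cellulose. In the deletion it was the 25th, 29th and 24th highest gene of its library by FPKM. In M12 on cellulose it ranked 4847, 4904 and 4771, and in gClrBID on cellulose 931, 1280 and 1367. A gene from the middle of the M12 ranking thus stood among the highest of the deletion strain.

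Between carbon sources the M12 level on cellulose was 932 times that on glucose, per counted fragment, with a 95% exact interval of 167 to 36843 that covers counting error only and is wide because glucose gave 1 fragment in all. In gClrBID the corresponding ratio was 250 (151 to 447), from 4380 fragments on cellulose and 15 on glucose. M12 on cellulose was also 44.9 times (27.1 to 80.7) above gClrBID on glucose. These ratios describe the pattern for which the gene was chosen.

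On glucose the ClrB mutant went with a small absolute level of cel61A and very high levels of the other cellulase genes. The fitted difference of cel61A, gClrBID minus M12, was 0.56 ± 0.13 (SE, n = 3 per group) on the log2(FPKM + 1) scale, given as a description because the choice of the gene used these low levels. The added 1 FPKM hides most of a ratio at this level. A pseudocount of 0.1 gave 2.26, and voom weights on the recovered fragments gave 3.33. The ratio per counted fragment was 20.7 with a counting interval of 3.19 to 873. In the same gClrBID libraries, the cellobiohydrolase genes cel6A (PDE_07124) and cel7A-2 (PDE_07945) averaged 12569 and 6596 FPKM, and the endoglucanase genes cel5B (PDE_09226) and cel7B (PDE_07929) averaged 9232 and 2286. cel61A held 0.000875 to 0.00234% of the FPKM summed over these 5 genes. In M12 on glucose the other 4 averaged between 1.33 and 4.39 FPKM, and all 4 were called higher in gClrBID, that is, at an adjusted p under 0.05 in limma with Benjamini-Hochberg adjustment over 8765 tested genes, of which 17% were called higher.

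On cellulose the strain gClrBID was compared with M12. cel61A was higher in gClrBID by 2.39 ± 0.13 on the log2 scale (limma, adjusted p = 2.39e-10, n = 3 per group). The ± value is an SE from the spread pooled over all 5 groups. Per counted fragment the level was 5.56 times that of M12 (5.16 to 6.002). Of all tested genes 27.3% were called higher in this comparison, and cel61A ranked 96 by fold change of FPKM + 1. The lowest gClrBID library, at 113.8 FPKM, lay above the highest M12 library, at 25.0. gClrBID replicate 1, at 169.6 FPKM, stood above the other two, and the change was 2.22 without it. That replicate also had the lowest clrB level of its group (56.0 FPKM), and with replicate 3 it formed the pair that differed most relative to counting error among the pairs of libraries within a group, by a variance ratio of 23.2. The part of that difference in the level of cel61A was not tested.

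The creA deletion was then compared with M12 on cellulose. cel61A was higher in the deletion by 7.32 ± 0.13 on the log2 scale (limma, adjusted p = 2.19e-16, n = 3 per group), a ratio of 167 per counted fragment (156 to 179). Among all tested genes 21.2% were called higher, and 3 exceeded cel61A by fold change on the log2(FPKM + 1) scale. The first was PDE_07091, with 7.88, and the second was cel6A, with 7.81. PDE_01076 followed with 7.44, and just below cel61A came PDE_09474 with 7.25 and PDE_09492 with 6.80. The levels behind these folds differed. PDE_01076 averaged 0.585 FPKM in M12 and 279 in the deletion, and PDE_09474 averaged 0.129 and 178. Both started near the floor, where cel61A started at 24.5. The added 1 FPKM shrinks the changes of such low genes. By ratio of mean FPKM, PDE_09474 also rose more than cel61A, so the order above holds on the log2(FPKM + 1) scale only. In gClrBID on cellulose, PDE_01076 and PDE_09474 averaged 0.649 and 0.183 FPKM and were not called against M12 (adjusted p = 0.843 and 0.781). PDE_07091 and PDE_09492 were called higher there, with PDE_07091 at a mean of 27.6 FPKM against 9.33 in M12.

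Set directly against each other on cellulose, the altered strains differed in cel61A by -4.92 ± 0.13 (log2, gClrBID against the creA deletion, limma, adjusted p = 2.39e-14, n = 3 per group). Per counted fragment the deletion was 30.0 times higher (29.1 to 30.9). Of all tested genes 19.8% were called lower in gClrBID, and 25 fell further than cel61A. The 3 comparisons on cellulose share libraries, and their values are given side by side on that footing.

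The other cellulase genes differed from cel61A in both level and response. On cellulose in M12, cel7A-2 averaged 1046 FPKM, cel7B 204, cel5B 138 and cel6A 66.0, all above cel61A at 24.5. cel7A-2 was 40.7 to 44.3 times as high as cel61A in the 3 M12 libraries and 32.9 to 47.0 times in gClrBID, against 7.01 to 7.92 times in the deletion. For cel7B the ratio was 8.14 to 8.51 in M12, 10.5 to 14.3 in gClrBID and 0.907 to 1.06 in the deletion, where cel61A and this endoglucanase gene stood at about the same FPKM. cel61A held 1.60 to 1.72% of the summed FPKM of the 5 genes in M12, 0.788 to 1.13% in gClrBID and 6.62 to 7.23% in the deletion. The 3 ranges do not overlap.

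**Figure D2:**
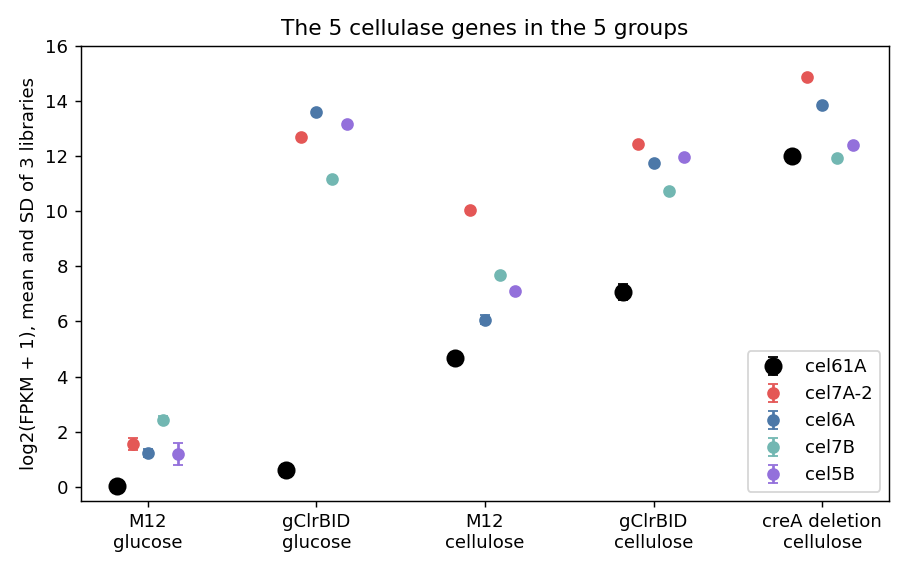
Level of cel61A (large black points) and the other 4 cellulase genes in the 5 groups, as mean and SD of log2(FPKM + 1) over 3 libraries. cel61A is lowest in all groups but the creA deletion, where it stands beside cel7B at mean levels of 4074 and 3892 FPKM; in gClrBID on glucose it averages 0.523 FPKM while the other 4 average 2286 to 12569 FPKM.

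Whether these responses differed from that of cel61A was tested on the difference of log2(FPKM + 1) values within each library. All differences share the values of cel61A, and limma's pooled spread across genes then gives p-values that are too small. The adjusted p-values below therefore use the spread of each difference alone, with 10 residual degrees of freedom, a form chosen after seeing the data. Both forms gave the same calls for the 4 cellulase genes. The shares of all other genes given below largely restate the rank of cel61A by fold change and are no separate result.

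In gClrBID against M12 on cellulose, cel61A rose less than 3 of the 4 other cellulase genes. Its response minus that of cel6A was -3.29 (log2, adjusted p = 1.74e-08 from limma without moderation), and minus that of cel5B it was -2.46 (8.99e-07). Against cel7B the difference was -0.66 (0.000394), which a pseudocount of 0.1 took out of the calls (-0.62, adjusted p = 0.0666 in the moderated fit). The cel7A-2 difference was -0.01, with a 95% interval of -0.34 to 0.32, and was not called. Of the 8764 other tested genes, cel61A was called more positive than 98.2% and more negative than 0.65%, and cel6A and both endoglucanase genes are among the latter.

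In the creA deletion against M12, cel61A rose more than cel7B by 3.07 (log2, adjusted p = 3.37e-10 from limma without moderation), more than cel7A-2 by 2.46 (1.38e-08) and more than cel5B by 2.04 (3.77e-06). Against cel6A the difference was -0.49 (0.011), which was not called with a pseudocount of 0.1 (-0.46, adjusted p = 0.173 in the moderated fit). Here cel61A was called more positive than 99.9% of the other genes and more negative than 0.0228%.

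In gClrBID against the deletion, all 4 other cellulase genes were called lower, as were 19.8% of all tested genes. The cel5B change, -0.43, was not called with a pseudocount of 0.1 (limma, adjusted p = 0.087). The difference in response was -4.50 against cel5B, -3.73 against cel7B, -2.80 against cel6A and -2.47 against cel7A-2, with adjusted p-values between 8.63e-11 and 1.41e-08 from limma without moderation. cel61A was called more negative than 99.6% of all other tested genes and more positive than 0.205%.

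**Figure D3:**
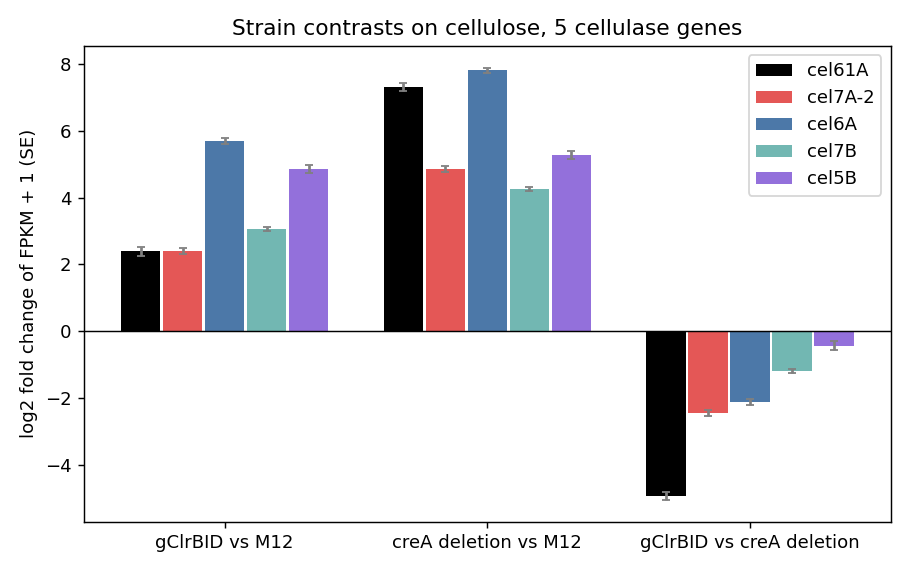
Fitted log2 fold change of FPKM + 1 (limma) as bars from 0, with standard errors, for cel61A and the other 4 cellulase genes in the 3 strain contrasts on cellulose. cel61A has 2.39 for gClrBID against M12 and 7.32 for the creA deletion against M12, where cel5B has 4.85 and 5.28.

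The other cellulases, as a list of 4, were all called higher in gClrBID than in M12 on cellulose and in the creA deletion than in M12, with medians of 3.95 and 5.07 against -0.02 and -0.28 over all tested genes. Around them, 6 further genes for plant polymer breakdown and uptake were fixed. They and the list of 4 were chosen with earlier results of these data known. Their counts beside the shares of all tested genes are therefore a description. In gClrBID on cellulose 5 of these 6 were called higher and none lower, where 27.3% of all tested genes were called higher. Among them were the xylanase gene xyn10A (PDE_08094, 4.87), the beta-glucosidase gene bgl2 (PDE_00579, 2.51) and cdtC (PDE_00607, 0.90), whose product carries cellodextrins into the cell. The alpha-amylase gene amy13A (PDE_01201) was at -0.04 and was not called (adjusted p = 0.828). In the creA deletion 5 of the 6 were called higher, against 21.2% of all tested genes, with xyn10A at 5.02, bgl2 at 2.85 and amy13A at 2.50. PDE_02736, placed among the beta-glucosidases, was at -0.30 and called lower, but neither after median-of-ratios scaling (0.02) nor without creA deletion replicate 1 (-0.23, limma, adjusted p = 0.0521). bgl2, whose product splits cellobiose into glucose, moved by 2.51 and 2.85, where cel61A moved by 2.39 and 7.32.

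Of the 5 regulator genes, 3 were called higher and 2 lower in gClrBID on cellulose, where 27.3% of all tested genes were called higher and 32.1% lower. clrB was at -1.06 and creA at -0.50, and brlA (PDE_00087), the regulator of conidiation, was at 0.56. amyR (PDE_03964), the activator of amylase genes, was at 0.34 and was not called without M12 cellulose replicate 2 (0.25, limma, adjusted p = 0.0646). In the creA deletion 1 of the 5 was called higher, 3 lower and 1 was not called. The 3 called lower include creA itself (-8.69), whose call follows from its deletion and is no result. Of all tested genes 21.2% were called higher and 54.2% lower. brlA rose by 2.88 to a mean of 317 FPKM, and amyR was at -1.33. clrB was at -0.50, not called after median-of-ratios scaling (-0.18). The xylanase activator gene xlnR (PDE_07674) was at 0.01, and at 0.32 and called higher after that scaling. In the libraries where cel61A was highest, clrB thus averaged 107 FPKM, against 153 in M12.

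The genes whose profile was most like that of cel61A were then listed by Pearson's r of log2(FPKM + 1) over the 15 libraries, which form only 5 groups, so that r mostly measures 5 group levels. The 10 highest had r between 0.992 and 0.997. They were PDE_01338, PDE_09999, PDE_01385, PDE_10007, PDE_00793, PDE_10010, PDE_10009, PDE_00803, PDE_00809 and PDE_00796, and none carries a name in the sources used here. PDE_01338 read a mean of 0.0328 FPKM in M12 and 0.0349 in gClrBID on glucose, then 6.11, 14.9 and 138 in M12, gClrBID and the deletion on cellulose. On cellulose it had the order of cel61A at a smaller range, and on glucose its libraries overlapped between the strains. Fitted changes of the 10 genes ran from 2.38 to 4.72 in the deletion against M12 on cellulose, where cel61A had 7.32, and from 0.73 to 1.94 in gClrBID against M12. Their direction follows from the choice by r over the same libraries and is no separate result. With a pseudocount of 0.1 only 4 of the 10 stayed among the 10 highest.

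When the size of the swings was counted as well, by the root mean square difference of profiles after each gene's own mean was taken off, the 5 nearest genes were PDE_07091, PDE_04182, PDE_00806, PDE_00794 and PDE_01261, at 0.987 to 1.12 log2 units. PDE_07091 averaged 9.33 FPKM in M12, 27.6 in gClrBID and 2381 in the deletion on cellulose, and below 1 FPKM in both strains on glucose. PDE_04182 averaged 82.5, 201 and 7210 FPKM on cellulose in the same order. On glucose it was already at 5.42 and 13.4 FPKM in M12 and gClrBID.

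**Figure D4:**
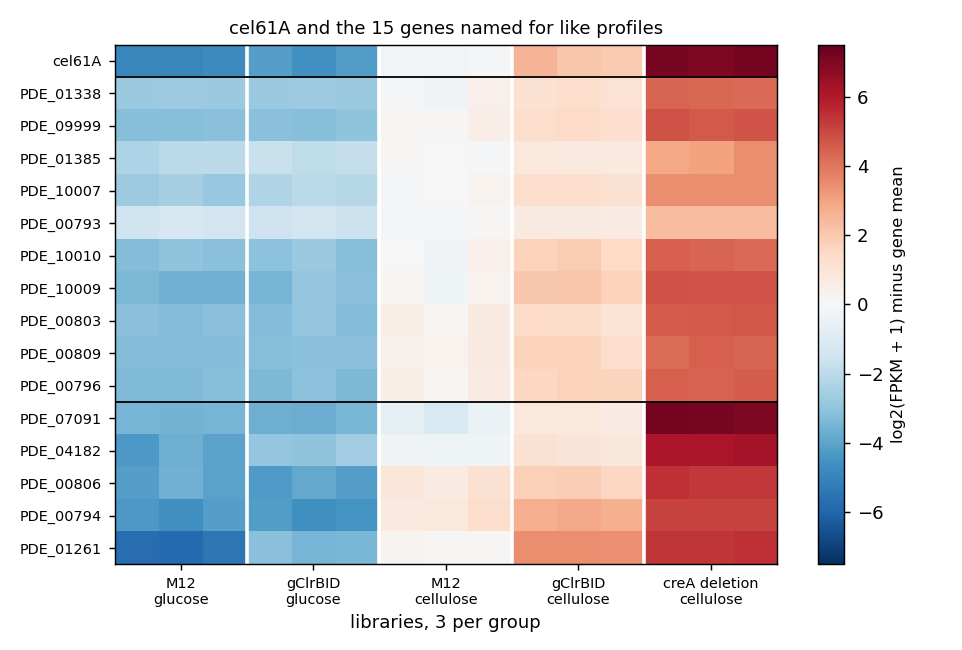
Heat map of log2(FPKM + 1) minus each gene's mean over the 15 libraries, with cel61A on top, then the 10 genes with the highest correlation and the 5 with the smallest root mean square difference; columns are libraries in group order. Every row is low on glucose (blue) and highest in the creA deletion (red), with paler colours in rows of small range such as PDE_00793. The swings of cel61A are wider than those of the 10 correlated genes.

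By tag number, 6 of these 15 genes lie between PDE_00793 and PDE_00809 and 4 between PDE_09999 and PDE_10010, far from PDE_05633. The runs hold 17 and 12 measured tags. Their ends are themselves listed genes, and clustering by tag was not tested. Among the fixed genes, brlA had an r of 0.979 with cel61A (39th of all) and amy13A 0.960 (87th), whereas cel7A-2 had 0.678 and cel6A 0.545. The cellobiohydrolase genes were high in gClrBID on glucose, where cel61A was low. That low level was part of the reason for choosing cel61A, so these r values are a description and no separate result.

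The 5 tags on either side of PDE_05633 were described as they came, since consecutive tags may lie next to each other. Among the 9 that could be tested, the changes on cellulose against M12 reached at most -1.59. In the creA deletion against M12, 3 of the 9 were called higher, PDE_05631 by 1.09, PDE_05635 by 0.53 and PDE_05637 by 0.41, and 2 lower, PDE_05632 at -1.59 and PDE_05630 at -0.62. Of all tested genes, 21.2% were called higher and 54.2% lower in that comparison. PDE_05628 (0.09) and PDE_05629 (-0.11) were called higher only after median-of-ratios scaling (0.39 and 0.20), and PDE_05629 was called lower after rescaling to TPM (-0.16). PDE_05638 (-0.15) was called lower only without creA deletion replicate 1 (-0.26). In gClrBID against M12 on cellulose 2 of the 9 were called higher, PDE_05631 by 0.40 and PDE_05637 by 0.34, and 2 lower, PDE_05632 at -0.84 and PDE_05630 at -1.20. PDE_05635 (0.10) was called higher there after median-of-ratios scaling (0.16), after rescaling to TPM (0.17) and without M12 cellulose replicate 1 (0.16). The call of PDE_05637 there was lost under voom weights (limma, adjusted p = 0.0544) and without M12 cellulose replicate 2 or gClrBID cellulose replicate 2 or 3 (0.0542 to 0.0792). The next tag, PDE_05634, was below the level needed for testing. It read 2.76, 0.839 and 3.36 FPKM in the deletion, from 17, 5 and 25 fragments, and 0 or 1 fragment in each of the other 12 libraries. The coordinates and strands of these genes were not at hand, so whether PDE_05634 overlaps cel61A and could share its fragments was not tested.

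**Figure D5:**
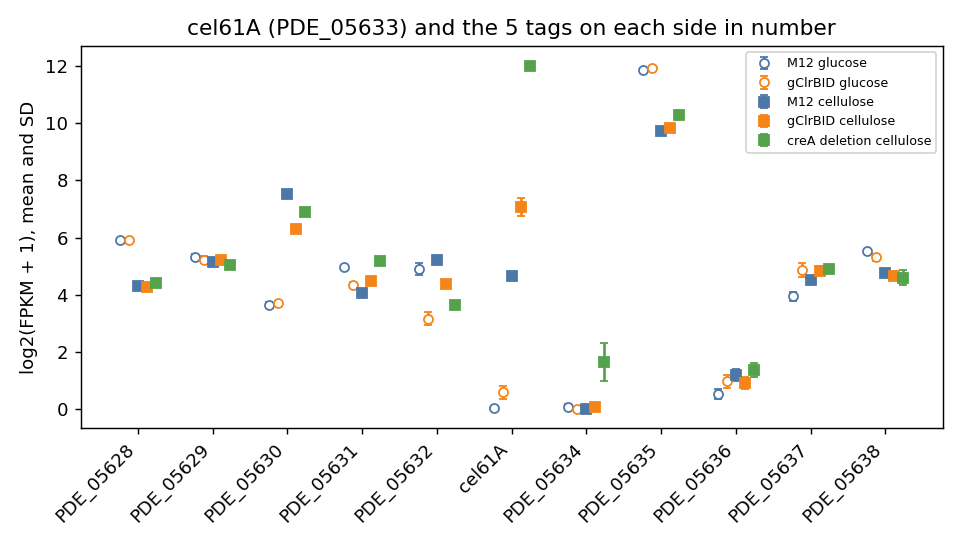
Level of cel61A and of the 5 locus tags before and after it, as mean and SD of log2(FPKM + 1) over 3 libraries per group; the horizontal axis is tag order, not distance on the chromosome. cel61A goes from near 0 on glucose to 4074 FPKM in the creA deletion, and in its neighbours the creA deletion (green) stays much closer to M12 on cellulose (blue squares).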

How the data were processed

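The authors deposited 1 table of FPKM values. The tools named, without roles, per the submitters' processing notes are HISAT2 2.0.0, DESeq2, CASAVA 1.8 and featureCounts 1.5.0-p1. The build, the annotation and the strand setting are not given in the sources used here. Per the labels' protocols, the kit for the mRNA libraries keeps strand. Each gene's FPKM values step by what 1 fragment is worth, and fragments were recovered from these steps (99.97% of values above 0 within 6e-05 FPKM), with a coding length of 750 bases for cel61A. limma 3.58.1 in R 4.3.3 was fitted to log2(FPKM + 1) of the 8765 genes that reached 1 FPKM in at least 3 libraries, with 1 mean per group over 15 libraries and an intensity trend, two-sided, with Benjamini-Hochberg adjustment over all genes and a threshold of 0.05. Every adjusted p comes from limma. The added 1 FPKM shrinks the fold changes of low genes. Counting intervals and floors cover counting error only, at 95%.

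cel61A, the 15 other fixed genes and the lists were chosen with earlier results of these data known. The other genes were named by rule: the 10 highest correlations and 5 smallest profile differences, the genes next to cel61A in the ranking by creA deletion, and 5 tags on either side. 0 of 9976 identifiers matched the RefSeq gene table (assembly ASM172317v3, strain HP7-1). The fits were tested on simulated data, in which the same assumed spread served all genes and was not matched to that of cel61A.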

Additional observations from a re-analysis of the deposited data

How the results depend on the processing

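Each test was repeated under 22 alternatives, of which 15 left out 1 library each. cel61A kept its direction and its call in the 3 strain comparisons on cellulose. Its SE of 0.13 there pools the spread over all 5 groups. Fitted to only the 2 groups compared, the SE was 0.134 for gClrBID against M12 and 0.0573 for the creA deletion against M12. For gClrBID against the deletion it was 0.140. Leaving out 1 library gave 2.22 to 2.51 for gClrBID against M12 and 7.27 to 7.37 for the creA deletion against M12 on cellulose, and -5.10 to -4.81 for gClrBID against the deletion. On glucose, a description only, it gave 0.47 to 0.68. Median-of-ratios scaling gave 7.63 for the creA deletion; it moved the median of all tested genes there from -0.28 to 0.00 and the split from 1860 higher and 4751 lower to 3208 and 3078. For gClrBID on glucose it moved the median from -0.26 and the split from 1493 higher and 4797 lower to 2977 and 2916. For gClrBID against the deletion the split went from 4412 higher and 1737 lower to 2752 and 3136, and the median from 0.21. For gClrBID against M12 on cellulose it went from 2394 higher and 2816 lower to 2863 and 2425. Rescaling to TPM gave 2925 and 2403 for that comparison.

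The difference between cel61A and cel7A-2 in gClrBID against M12 on cellulose, -0.01 and not called, became positive at a pseudocount of 0.1 (0.0296) or under voom weights (0.0366), and ranged from -0.179 to 0.0752 when 1 library was left out. With a pseudocount of 0.1, the cel7B difference in that comparison (-0.62) and the cel6A difference in the creA deletion (-0.46) were no longer called.

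The shared replicate numbers did not pair the libraries: deviations of same-numbered libraries from their group means correlated at -0.0968 to 0.0879. With the replicate number as a block, cel61A stayed at 2.39 (adjusted p = 8.71e-10), 7.32 (1.05e-14) and -4.92 (2.96e-13) on cellulose in limma, and no call of cel61A there or of its differences from the cellulase genes changed. On glucose, the 1 fragment in M12 limits the precision.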
